A study of Mus musculus with 2 samples.

Results

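Carbonic anhydrases were followed in liver tumors from WT and Fabp4-/- mice through 10 genes, *Car1*, *Car2*, *Car3*, *Car4*, *Car5a*, *Car8*, *Car9*, *Car12*, *Car13* and *Car14*, out of 48526 genes in the deposited table. The genes were matched by symbol, and all 10 were found. The list was chosen by TPM and normalised counts of this same WT and Fabp4-/- comparison, known from earlier work on the table, so their levels and ratios are a description, with no test. The other 6 carbonic anhydrase genes of the table, *Car5b*, *Car6*, *Car7*, *Car10*, *Car11* and *Car15*, are set beside them where they help.

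Male C57BL/6N WT mice and Fabp4-/- littermates received DEN (*N*-nitrosodiethylamine, a liver carcinogen) at 25 mg/kg by intraperitoneal injection when 14 days old, then a HFD from 6 weeks of age for 29 weeks. PolyA RNA of the liver tumors was sequenced as 1 library per genotype, so the WT tumors are the only control here. The knockout allele and the number of mice or nodules behind a library are not described in the sources used here, so genotype, mouse and tumor nodule cannot be told apart. No difference has a replicate check, and no p-value was computed.

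Carbonic anhydrases are enzymes that convert CO2 and water to bicarbonate and a proton and back, with a zinc ion in the active site held by histidines. The family members differ mainly in where they sit. Some are dissolved in the cytosol, others lie in the mitochondrial matrix or are anchored in the plasma membrane with the active site outside the cell, and a few have lost the activity. In liver, bicarbonate made in mitochondria feeds the first step of the urea cycle and the carboxylation of pyruvate, and *Car3* is an abundant transcript of hepatocytes.

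The targeted gene was checked first. *Fabp4* was at 44.1 TPM in WT and at 0.03 TPM in Fabp4-/-, from 1786 estimated read pairs and 1, as the labels say. TPM scales the reads of a gene by its length and by the sum over the library, so it can be compared between genes. A second value, the normalised count, is an estimated count of read pairs divided by 1 size factor per library. Depth came to 56353665 (WT) and 59600850 (Fabp4-/-) estimated read pairs. All 16 hepatocyte markers were measured, with summed levels of 177410 TPM in WT and of 230494 TPM in Fabp4-/-. Ratios on the log2 scale are Fabp4-/- over WT after adding 0.5 to TPM or 10 to normalised counts, which holds back the ratio of low genes. For the 13557 genes that reached 1 TPM in the higher library, the median was −0.46 by TPM and 0.04 by normalised counts, and each TPM ratio has to be read against that shift. Folds with an interval are ratios of normalised counts with nothing added, and the exact binomial 95% interval covers counting error only, without the variation between mice or tumors.

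Promoter sequence was matched for 5 of the 10 genes, *Car4*, *Car5a*, *Car9*, *Car12* and *Car14*, in RefSeq on build GRCm38.p6, the assembly also known as mm10. The 250 bases before the RefSeq start are shown for 3 of them, which reached 1 TPM in the higher library and differed by at least 2-fold by normalised counts. These are *Car5a* and *Car14*, which were higher in Fabp4-/-, and *Car4*, which was lower. Capitals mark a match to a searched motif.
*Car5a* (chr8:121944913-121945162, minus strand): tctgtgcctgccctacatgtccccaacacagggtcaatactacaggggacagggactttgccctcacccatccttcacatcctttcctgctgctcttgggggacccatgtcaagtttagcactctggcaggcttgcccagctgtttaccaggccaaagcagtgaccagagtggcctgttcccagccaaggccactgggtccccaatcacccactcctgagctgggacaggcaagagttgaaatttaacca
*Car14* (chr3:95904686-95904935, minus strand): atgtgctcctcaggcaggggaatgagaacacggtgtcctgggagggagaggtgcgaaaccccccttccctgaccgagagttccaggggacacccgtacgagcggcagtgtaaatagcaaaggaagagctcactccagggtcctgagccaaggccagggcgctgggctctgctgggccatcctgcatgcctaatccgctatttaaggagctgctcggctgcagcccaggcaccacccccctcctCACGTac
*Car4* (chr11:84957504-84957753, plus strand): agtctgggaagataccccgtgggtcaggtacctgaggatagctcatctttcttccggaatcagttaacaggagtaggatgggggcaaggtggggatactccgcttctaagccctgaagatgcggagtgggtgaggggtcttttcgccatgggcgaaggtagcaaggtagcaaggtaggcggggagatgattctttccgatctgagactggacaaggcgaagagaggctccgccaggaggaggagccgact

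The motifs searched were ACGTG, the core of the hypoxia response element, CTTTGA, the core of the TCF/LEF element, and TATAAA, the TATA box, each on both strands. ACGTG was held by 16.6% of 32851 promoter windows of the same length, CTTTGA by 13.8% and TATAAA by 12.4%. *Car14* had 1 match, to ACGTG on the opposite strand, beginning 7 bases before the start. *Car9* had ACGTG on the opposite strand, beginning 18 bases before the start, and CTTTGA beginning 153 bases before it. These starts are those of RefSeq. The *Car9* window ends at 43507025, past the gene start of 43506966 in the deposited annotation, and the *Car14* window also overlaps its gene there. The ACGTG matches of both thus lie at least partly inside the genes as deposited. The matches did not overlap one another, and none of the 3 motifs was present in these windows of *Car4*, *Car5a* or *Car12*. The *Car5a* window had 0 CpG dinucleotides, against 11 in *Car4*, 10 in *Car14* and a median of 6 over all windows. A match is a string of letters and not a measured binding site.

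Of the 10 genes, 7 reached the minimum of 1 TPM in the higher library, and these went in both directions. *Car3*, *Car14* and *Car5a* were higher in the Fabp4-/- library, *Car2* and *Car4* were lower, and *Car8* and *Car1* lay closer to the bulk of genes. At a 2-fold difference by TPM, 2 of the 7 were higher, where 2.18% of all genes tested were, and 2 were lower, where 14.2% of all genes were. By normalised counts 3 were higher, beside 4.78% of all genes, and 2 were lower, beside 6.26%. The selection used these same values, so nothing is read from the gap to the background. The same shares of all genes are the background for the counts in the gene lists below. The 3 genes under the minimum were *Car9*, *Car12* and *Car13*. Just past the 2-fold line by TPM lay *Car14*, at 2.25-fold with the pseudocount, and just short of it *Car5a*, at 1.996-fold, the gene that ranked 297th from the top where 296 genes passed.

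**Figure D1:**
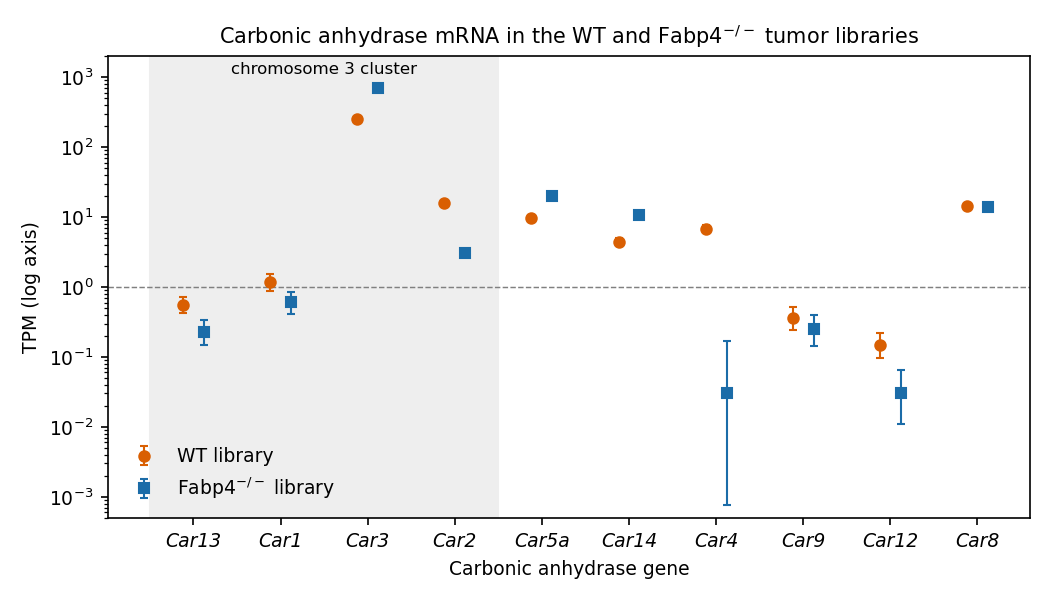
TPM on a log axis of the 10 carbonic anhydrase genes in the WT library (circles) and the Fabp4-/- library (squares). Bars are exact Poisson 95% intervals of the read pairs, converted to TPM, and cover counting error only; the dashed line marks 1 TPM, and the *Car4* point of Fabp4-/- rests on 1 read pair.

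*Car3* dominated the family in both libraries. This cytosolic enzyme of hepatocytes, adipocytes and muscle has a low hydratase activity. It was at 252 TPM in WT and at 695 TPM in Fabp4-/-, from 17255 and 54793 estimated read pairs. The log2 ratio was 1.46 by TPM, and normalised counts were 4.09-fold higher (95% interval 4.02 to 4.16). *Car3* ranked 156th from the top of the 13557 genes by TPM and 122nd by normalised counts. Adipocytes and skeletal muscle are the other rich sources of *Car3*. *Adipoq* was at 0.06 TPM in WT and at 0 in Fabp4-/-, and *Plin1* at 0.02 TPM and 0. *Lep* was at 0 in both libraries and *Retn* at 0 in Fabp4-/-. Of the 13 adipocyte markers 8 reached the minimum, 0 of them differed by 2-fold, and the whole list summed to 206 TPM and 138 TPM, of which the lipases *Lpl* and *Pnpla2* made up 84.2 TPM and 48.65 TPM in WT. The skeletal muscle actin *Acta1* was at 0.21 TPM and 0.02 TPM. The muscle markers *Mb*, *Myh1*, *Myh2*, *Myh4* and *Pvalb* were at 0 in both libraries, and the 14 muscle markers summed to 2.86 TPM in WT and to 2.19 TPM in Fabp4-/-. Except for *Plin4*, *Lpl* and *Pparg*, these adipocyte and muscle markers were picked out after their values were seen. The part of either cell type in the *Car3* level was not tested. The median log2 ratio of hepatocyte markers was 0.33 on the TPM scale and 0.90 for normalised counts, the same direction as *Car3*, and their part in its level was not tested.

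*Car2* was lower in Fabp4-/-. It encodes the fast cytosolic enzyme found in red cells, bile duct epithelium and osteoclasts, among others. The level was 16.1 TPM in WT and 3.02 TPM in Fabp4-/-, from 1153 and 248 estimated read pairs, a log2 ratio of −2.23 by TPM. By normalised counts it was 3.61-fold lower (95% interval 3.15 to 4.16), and it ranked 177th from the bottom by TPM and 225th by normalised counts. *Car2* was thus 2nd of the 10 in the WT library and 5th in the Fabp4-/- library, where *Car5a*, *Car8* and *Car14* had passed it.

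Markers of the cell types that carry *Car2* did not form 1 pattern. Of 10 measured cholangiocyte markers, 4 were lower by 2-fold or more and 1 was higher by TPM, while normalised counts gave 3 and 1. The keratin gene *Krt7* was at 1.48 TPM in WT and at 0.19 TPM in Fabp4-/-, *Epcam* at 2.68 TPM and 0.66 TPM and *Tspan8* at 130.5 TPM and 57.3 TPM. The summed level of the 15 markers went the other way, from 660 TPM to 1090 TPM, and *Spp1*, named after its values were seen, made up 468 TPM and 985 TPM of it. *Tff2* was low in both libraries, at 0.27 TPM in WT, from 5 read pairs, and at 0 in Fabp4-/-. Of 6 measured erythroid markers, 0 passed 2-fold either way, with a median of −0.47 on the TPM scale and 0.10 for normalised counts. The 14 erythroid markers in the table summed to 3151 TPM and 2295 TPM. *Rhag* was at 0.01 TPM in WT, from 1 read pair, and at 0 in Fabp4-/-. The β-globin gene *Hbb-bs* was at 1274 TPM and 835 TPM, a log2 ratio of −0.05 by normalised counts. Of 14 measured macrophage and osteoclast-like markers, 2 were lower by 2-fold or more and 1 higher on the TPM scale, and 0 and 4 for normalised counts, with sums of 586 TPM and 437 TPM. *Ctsk*, the osteoclast protease, was at 3.78 TPM and 1.25 TPM, while the macrophage receptor *Marco* was at 0.51 TPM and 1.93 TPM and the complement gene *C1qa* at 129.7 TPM and 63.3 TPM. The osteoclast phosphatase *Acp5*, picked out once its level was known, was at 116.9 TPM and 144.9 TPM. In bulk RNA, fewer cells of a type and less RNA per cell cannot be told apart, and the part of these cells in the *Car2* level was not tested.

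*Car1* and *Car13* were low in both libraries. *Car1*, the cytosolic enzyme best known from red cells and colon, was at 1.18 TPM in WT and at 0.61 TPM in Fabp4-/-, from 54 and 32 read pairs. Its normalised counts were 1.31-fold lower, with an interval from 0.83 to 2.10 that spans no difference. *Car13*, another cytosolic enzyme, was at 0.56 TPM and 0.23 TPM, from 55 and 26 read pairs, 1.64-fold lower (95% interval 1.01 to 2.73). By TPM the Poisson 95% intervals of *Car1* did not overlap, at 0.89 to 1.54 in WT and 0.42 to 0.86 in Fabp4-/-. Those intervals also carry the TPM shift of all genes, and against the median gene *Car1* lay only 0.14 below. What its reads show for this pair of libraries thus depends on the scaling as well as the depth.

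The mitochondrial enzyme *Car5a*, which supplies bicarbonate to carbamoyl phosphate synthetase and pyruvate carboxylase in hepatocytes, was at 9.69 TPM in WT and at 19.8 TPM in Fabp4-/-. These values came from 476 and 1122 read pairs. The log2 ratio was 0.997 by TPM, and normalised counts were 3.03-fold higher (95% interval 2.72 to 3.38). Its paralog *Car5b*, which is expressed more broadly, was at 0.81 TPM and 0.72 TPM, 1.32-fold higher by normalised counts (95% interval 1.02 to 1.71). In both libraries *Car5a* was thus the main mitochondrial carbonic anhydrase.

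The enzymes that use bicarbonate divided among themselves. Of 9 measured, 2 were higher by 2-fold or more and 1 was lower by TPM, while normalised counts gave 2 and 0. *Cps1*, the carbamoyl phosphate synthetase of the urea cycle, was at 14.3 TPM in WT and at 54.2 TPM in Fabp4-/-. *Acacb*, the acetyl-CoA carboxylase of the mitochondrial surface, was at 1.61 TPM and 7.67 TPM. *Cad*, which starts pyrimidine synthesis, was at 6.62 TPM and 2.13 TPM, a log2 ratio of −0.69 by normalised counts. *Pcx*, the pyruvate carboxylase, chosen once its level was known, was at 97.1 TPM and 57.7 TPM, a log2 ratio of −0.19 by normalised counts. The median over the 9 was 0.25 by TPM and 0.68 by normalised counts. Of the enzymes *Car5a* is known to supply, *Cps1* thus had the higher level in the Fabp4-/- library by both measures. *Pcx* was lower, but short of 2-fold on either measure and near the bulk of genes by normalised counts.

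The 4 membrane enzymes went different ways. *Car14*, a transmembrane enzyme of the hepatocyte plasma membrane, was at 4.46 TPM in WT and at 10.7 TPM in Fabp4-/-, from 299 and 846 read pairs. Its log2 ratio was 1.17 by TPM, with normalised counts 3.64-fold higher (95% interval 3.19 to 4.17). *Car4*, a lipid-anchored enzyme that faces the lumen of capillaries in several organs, was at 6.78 TPM in WT and at 0.03 TPM in Fabp4-/-. The WT value came from 294 read pairs and the other from 1, so that normalised counts were 228-fold lower with a 95% interval from 40.7 to 9055. It was the 30th lowest of 13557 genes by TPM and the 13th lowest by normalised counts. Of 14 endothelial markers measured, 0 were lower by 2-fold or more on either measure, and 3 were higher by normalised counts but 0 by TPM. Their summed level was 145 TPM in WT against 128 TPM in Fabp4-/-, and the markers with the largest ratios went both ways. *Emcn*, an endothelial sialomucin, was at 7.09 TPM and 3.94 TPM, *Oit3* at 3.12 TPM and 5.42 TPM and *Lyve1*, a hyaluronan receptor, at 3.49 TPM and 5.58 TPM. T and NK cell markers were lower alongside *Car4*, as alongside *Car2*, with 12 of 13 past 2-fold by either measure and summed levels of 85.6 TPM and 10.6 TPM, and their part in the level of either gene was not tested.

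*Car9* and *Car12*, the transmembrane enzymes of hypoxic tumors and of secretory epithelia, were very low in both libraries. *Car9* was at 0.36 TPM in WT and at 0.25 TPM in Fabp4-/-, from 30 and 17 read pairs. The 1.37-fold lower normalised count had an interval from 0.73 to 2.65, so a difference was not detectable at this depth. *Car12* was at 0.15 TPM and 0.03 TPM, from 24 and 6 read pairs, 3.11-fold lower (95% interval 1.24 to 9.30). *Car9* is a textbook target of hypoxia-inducible factor. All 20 other hypoxia response genes in the table reached the minimum, with summed levels of 1087 TPM in WT against 958 TPM in Fabp4-/-. On the TPM scale 0 were higher by 2-fold or more and 5 were lower, and on that of normalised counts 0 passed 2-fold either way. Their median log2 ratio was −0.34 by TPM and 0.15 by normalised counts, beside −0.46 and 0.04 for all genes. By normalised counts they went both ways, from −0.997 to 0.92. The 3 with the largest ratios by TPM were all lower. *Pfkfb3*, a driver of glycolysis, was at 13.2 TPM and 4.43 TPM, *Ndrg1* at 9.97 TPM and 3.61 TPM and *Ankrd37* at 17.6 TPM and 7.49 TPM.

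*Car8* encodes a carbonic anhydrase-related protein without enzymatic activity, known as a partner of the inositol trisphosphate receptor. It was at 14.2 TPM in WT and at 13.9 TPM in Fabp4-/-, from 2421 and 2722 read pairs. The log2 ratio was −0.03 by TPM, while normalised counts were 1.45-fold higher (95% interval 1.37 to 1.53), so its direction depends on the scaling. Measured against the median gene it lay 0.43 above by TPM. The other family genes without activity were low, *Car11* at 0.28 TPM and 0.13 TPM and *Car10* at 0 in both libraries.

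**Figure D2:**
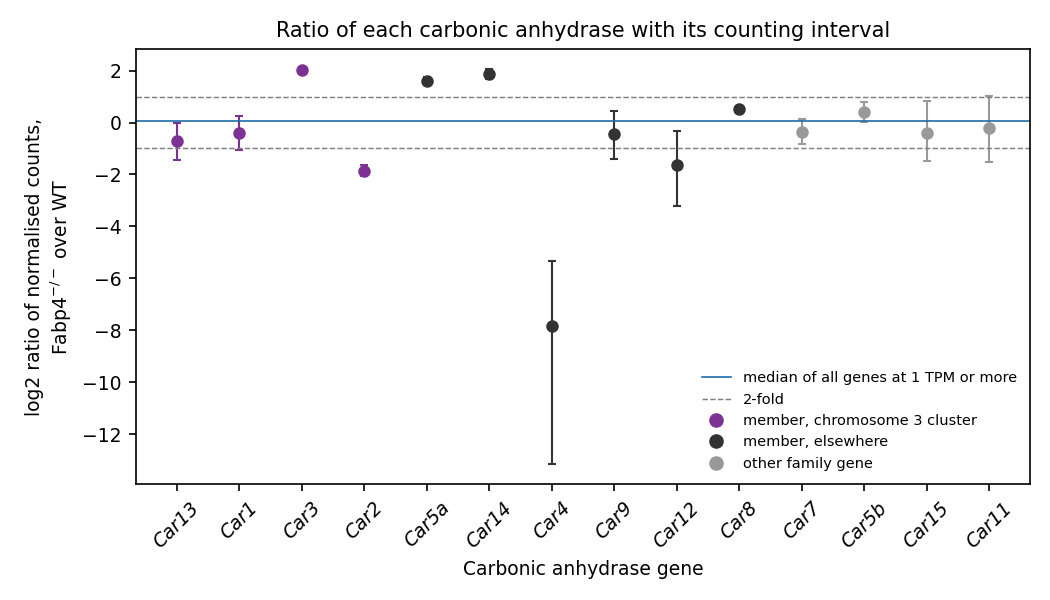
The log2 ratio of normalised counts, Fabp4-/- over WT, with its exact binomial 95% interval, for the 10 genes and 4 other family genes, with the median of all genes (blue line) and the 2-fold lines (dashed). *Car3*, *Car5a* and *Car14* lie above the upper line with their whole intervals, and *Car2* and *Car4* below the lower line; the intervals cover counting error only.

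Within the chromosome 3 cluster, the neighbours *Car3* and *Car2* lay on opposite sides. *Car13*, *Car1*, *Car3* and *Car2* stand in this order on chromosome 3 of mm10, from 14641727 to 14663002, 14766216 to 14808368, 14863512 to 14872523 and 14886273 to 14900770, a stretch of 259 kb. Their identifiers in the table are ENSMUSG00000027555.8, ENSMUSG00000027556.15, ENSMUSG00000027559.5 and ENSMUSG00000027562.12. *Car1* is on the minus strand and the other 3 are on the plus strand. *Car3* and *Car2*, the pair with the highest levels, are 13.7 kb apart and read in the same direction. By normalised counts *Car3* was 4.09-fold higher and *Car2* 3.61-fold lower in Fabp4-/-. The table lists 2 pseudogenes inside the cluster, both at 0 in both libraries.

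The cluster held genes of both directions, as the rest of the family did. Of its 3 members at the minimum, *Car3* was higher by 2-fold or more and *Car2* lower, on both measures, and log2 ratios ran from −2.23 to 1.46 by TPM. Of the 4 members at the minimum outside it, *Car14* was higher and *Car4* lower by TPM, joined by *Car5a* among the higher by normalised counts, with log2 ratios from −3.78 to 1.17 by TPM. The medians were −0.60 for the cluster and 0.48 for the others, a difference of −1.08 that rests on *Car1*, the middle value of 3. The ranges of the 2 sets overlapped. *Car14* is also on chromosome 3, from 95897768 to 95904691, but 81.0 Mb beyond *Car2*. *Car8* (8143362 to 8239041) and *Car9* (43506966 to 43513729) lie on chromosome 4, *Car5a* (121916126 to 121944904) on chromosome 8, *Car12* (66713686 to 66766845) on chromosome 9 and *Car4* (84957786 to 84966044) on chromosome 11.

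*Fabp4* itself is also on chromosome 3, from 10204088 to 10208576, and its end is 4.43 Mb from the start of *Car13*. The 21 other genes at the minimum within 2 Mb of either end of the stretch from *Fabp4* to *Car2* had median log2 ratios of −0.57 (TPM) and −0.06 (normalised counts), beside −0.46 and 0.04 for all genes. Of these, 0 were higher by 2-fold or more and 4 (19.0%) lower by TPM, beside 2.18% and 14.2% of all genes. Normalised counts gave 1 (4.76%) and 2 (9.52%), beside 4.78% and 6.26% of all genes. *Fabp5*, for another fatty acid-binding protein of the *Fabp4* locus, was at 92.0 TPM in WT and at 178 TPM in Fabp4-/-, the highest ratio among these neighbours. Of the 5 *Fabp* genes of that locus, *Fabp9* and *Pmp2* were at 0 in both libraries and *Fabp12* was under the minimum. *1810022K09Rik*, the well expressed gene closest to the cluster on its *Fabp4* side, was at 132.8 TPM and 128.5 TPM. Other neighbours at 10 TPM or more were *Mrps28*, at 43.7 TPM and 49.3 TPM, *Tpd52*, at 33.6 TPM and 19.15 TPM, *Impa1*, at 30.2 TPM and 23.3 TPM, *Zfand1*, at 10.3 TPM and 8.06 TPM, and *Ythdf3*, at 16.45 TPM and 10.7 TPM. Among these well expressed neighbours only *Fabp5* passed 2-fold, by normalised counts, whereas *Car3* and *Car2* did so by both measures. Less expressed neighbours also passed it on both scales. *Sirpb1a* was at 4.6 TPM in WT and at 1.13 TPM in Fabp4-/-, and *Slc10a5* at 4.22 TPM and 1.38 TPM. Their log2 ratios of normalised counts were −1.26 and −1.02, and both genes were named after their values were seen.

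**Figure D3:**
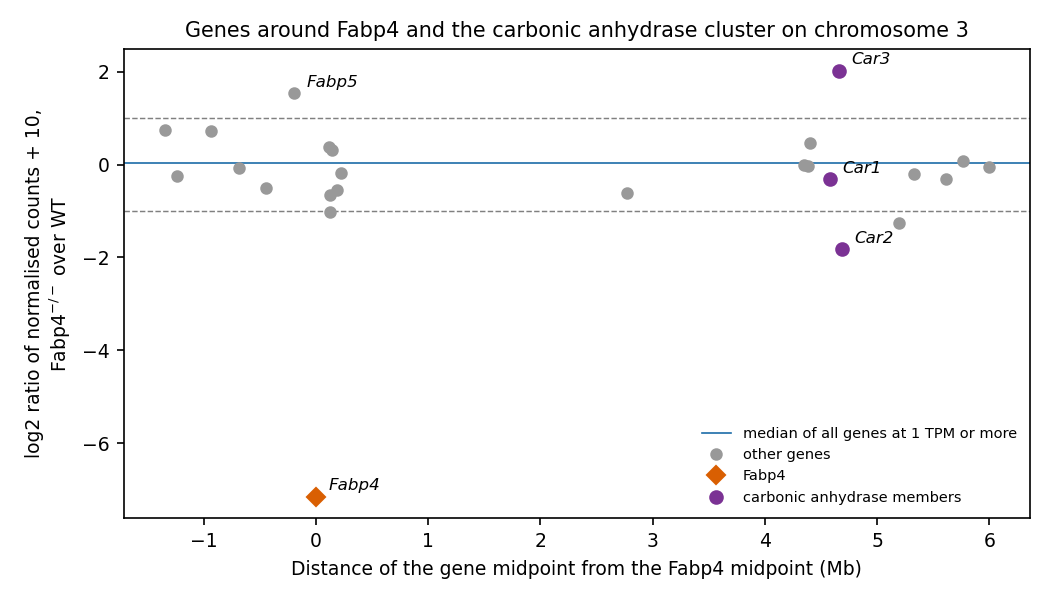
The log2 ratio of normalised counts, Fabp4-/- over WT, of the genes at 1 TPM or more, by distance in Mb of each gene from *Fabp4*, with 3 members of the cluster in purple and the median of all genes as a blue line. *Car3*, at 2.03, and *Car2*, at −1.82, lie on opposite sides of their neighbours, most of which are within the dashed 2-fold lines.

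Chromosome 3 as a whole had shares close to those of the other chromosomes. By normalised counts, 5.51% of its 690 genes at the minimum were higher by 2-fold or more and 7.83% were lower, against 4.74% and 6.18% of 12867 genes on other chromosomes. The medians were 0.038 and 0.040.

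The family as a sum was higher in the Fabp4-/- library, with *Car3* as its main part. The 16 carbonic anhydrase genes summed to 309 TPM in WT against 746 TPM in Fabp4-/-. Without *Car3* the direction of the sum turned with the scaling, from 56.5 TPM in WT to 50.4 TPM in Fabp4-/-, but from 4459 to 5926 normalised counts. *Car3* made up 81.7% of the summed TPM in WT and 93.2% in Fabp4-/-. The remaining cytosolic enzymes summed to 19.3 TPM and 4.65 TPM, mostly *Car2*, which is 6.25% and 0.62% of the family. Mitochondrial enzymes summed to 10.5 TPM and 20.6 TPM. The 5 membrane enzymes, *Car15* included, summed to 12.1 TPM and 11.2 TPM, but to 587 and 999.97 normalised counts, and *Car4* led in WT and *Car14* in Fabp4-/-. The 3 family genes without activity summed to 14.5 TPM and 14.0 TPM.

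The order of levels therefore differed between the libraries below *Car3*. In WT it was *Car2* at 16.1 TPM, *Car8* at 14.2 TPM, *Car5a* at 9.69 TPM, *Car4* at 6.78 TPM and *Car14* at 4.46 TPM. In Fabp4-/- it was *Car5a* at 19.8 TPM, *Car8* at 13.9 TPM, *Car14* at 10.7 TPM and *Car2* at 3.02 TPM. The Poisson 95% intervals of these neighbours did not overlap, the closest pair being *Car2* in WT, from 15.1 TPM upward, and *Car8*, up to 14.8 TPM. Farther down, *Car9* and *Car13* could not be ordered in Fabp4-/-, at 0.25 TPM (0.15 to 0.40) and 0.23 TPM (0.15 to 0.34). The other family genes stayed low, *Car7* at 1.5 TPM and 0.79 TPM, *Car15* at 0.38 TPM and 0.20 TPM and *Car6* with 1 read pair in WT and 0 in Fabp4-/-, for which no fold is given because both are under 3 read pairs.

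**Figure D4:**
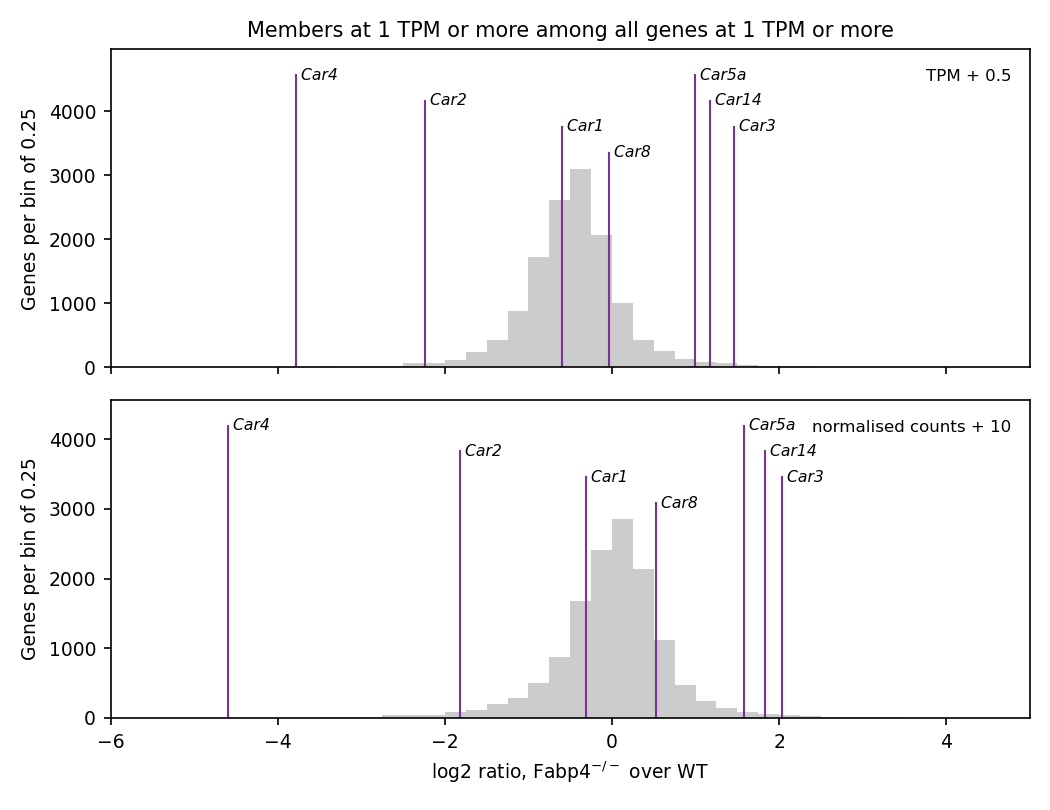
Number of genes per bin of 0.25 in the log2 ratio of Fabp4-/- over WT, by TPM (upper) and by normalised counts (lower), for the 13557 genes at the minimum, with the 7 carbonic anhydrases at the minimum as purple lines. The axis runs from −6 to 5, and the few genes beyond it, *Fabp4* among them, are not shown. *Car4* and *Car2* lie in the lower tail and *Car5a*, *Car14* and *Car3* in the upper tail of both distributions, while *Car8* changes from −0.03 to 0.53.

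Genes listed for the transport of bicarbonate, protons and water showed no common direction. The list included the monocarboxylate carriers *Slc16a1*, *Slc16a3* and *Slc16a7*, and also *Bsg* and *Slc9a3r1*, whose products are not transporters themselves. Of 16 measured, 1 was higher by 2-fold or more and 4 were lower by TPM, while normalised counts gave 2 and 1. Their median log2 ratio was −0.33 and 0.07. The water channel *Aqp8* was at 39.0 TPM in WT and at 150.8 TPM in Fabp4-/-, and *Aqp9*, the glycerol and water channel of hepatocytes, at 129.65 TPM and 52.7 TPM, a log2 ratio of −0.73 by normalised counts. *Slc4a8*, a sodium-driven bicarbonate exchanger, was at 2.42 TPM and 0.64 TPM. The hepatocyte aquaporins, like the carbonic anhydrases, thus held both higher and lower genes.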

How the data were processed

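The authors sequenced polyA RNA of WT and Fabp4-/- liver tumors, 1 library each, with paired ends of 151 bp, and used STAR 2.5.2, RSEM 1.2.31 and mm10, according to the submitters' processing notes. For settings, annotation and strand the sources used here give nothing. The authors deposited TPM and normalised read counts, a signal equal to RSEM expected counts over 1 size factor per library. Their own fold changes, posterior probabilities and FDR were not used.

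Estimated read pairs were normalised counts divided by the most frequent value above 0 (0.882 for WT, 1.13 for Fabp4-/-). This gave whole numbers, to within 0.0001 read pairs, for 86.0% and 86.5% of values above 0, so no count test was run. Genes at 1 TPM or more in the higher library were compared with a 2-fold threshold, with 0.5 added to TPM. Alternatives were other pseudocounts, scalings, minimums and thresholds.

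The members and the 13 gene lists (written from textbook knowledge) were chosen with earlier results of these data known. Genes named are all members, the rest of the family, *Fabp4* and its neighbours, neighbours of the cluster at 10 TPM or more, and up to 3 genes per list with the largest ratios; exceptions are marked. The 2-fold calls were checked on simulated data, with ratios centred on their median and for well counted genes only. That check does not cover the uncentred TPM ratios or the genes with few read pairs. Values were computed in Python 3.11.15 with scipy 1.17.1 (intervals), pandas 2.3.3 and numpy 2.4.6, and plotted with matplotlib 3.10.9.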

Additional observations from a re-analysis of the deposited data

How the results depend on the processing

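No paired analysis was possible because WT and Fabp4-/- tumors gave only 1 library apiece. Of the 10 genes, 8 kept the sign of their log2 ratio under all 6 alternatives of pseudocount and scaling. *Car8* turned positive in 4 of the 6 (up to 0.53 by normalised counts) and *Car9* in 1 (0.01). The count of genes at least 2-fold lower was 2 in every alternative but the 1.5-fold threshold (3). That of genes at least 2-fold higher was 2 or 3, but 0 at a 4-fold threshold. The 1.5-fold and 4-fold thresholds were applied to TPM, and by normalised counts *Car3* passed 4-fold, at a log2 ratio of 2.03. The median of the members, −0.03, was 0.53 by normalised counts, 0.50 with median centring, 0.29 after upper quartile scaling, −0.25 with no minimum and 0.48 with a minimum of 5 TPM. The cluster median minus that of the other members, −1.08, was −1.35 with a pseudocount of 0.1, −1.37 by normalised counts, −1.29 with median centring, −0.45 with no minimum, −0.87 with a minimum of 5 TPM and −0.57 with the other family genes. The minimum changes which members enter. For the other settings the cause was not tested.

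Over all genes, 296 were at least 2-fold higher and 1928 lower on the TPM scale, against 648 and 849 for normalised counts, 719 and 759 after median centring, 503 and 1039 under upper quartile scaling, 446 and 1797 without the 20 most abundant genes, and 203 and 1083 with a minimum of 5 TPM. Depth limits *Car9*, *Car12* and *Car13*, and the size but not the direction of the *Car4* ratio. *Car1* is limited by depth and by scaling.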

Other observations

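Estimated read pairs per TPM, a measure that follows the length of the transcripts counted for a gene, were compared between the libraries, relative to the median gene. For the 7 members with at least 20 read pairs in both libraries the Fabp4-/- over WT value was between 0.994 (*Car2*) and 1.002 (*Car3*) in 6 and 1.03 in *Car14*. The central 90% of 12921 genes lay between 0.840 and 1.11. *Car9*, with 17 read pairs in Fabp4-/- and so not among these genes, was at 0.709, below that range. The reason was not tested.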
